A study of Saccharomyces cerevisiae with 16 samples.

Results

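The genes described here are the small nuclear RNA (snRNA) and small nucleolar RNA (snoRNA) genes of budding yeast, Saccharomyces cerevisiae, taken as every array feature whose name begins with SNR and a digit. There were 43 such features among 13059 feature names, and 42 of them had a value on 3 or more arrays in each group and could be tested, as were 12380 names in all. The member that could not be tested was SNR68, a C/D box gene. All 43 names matched a gene of the R64 reference annotation, from which gene types and neighbours were taken.

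The study mapped where replication forks pause, by chromatin immunoprecipitation (IP) hybridised against input DNA on 2-colour PCR-product arrays of genes and intergenic regions. Pol2 is here the catalytic subunit of DNA polymerase epsilon, which copies the leading strand, and not RNA polymerase II, while Rrm3 is a DNA helicase that helps forks past proteins bound to DNA. The 3 groups were the Rrm3 IP, from haploid W303a cells expressing Rrm3-13MYC (5 arrays), the Pol2 IP on arrays labelled rrm3 delete, from haploid W303a cells with Pol2-13MYC and RRM3 deleted (6 arrays), and the wild-type Pol2 IP, from haploid W303a cells with Pol2-13MYC and RRM3 intact (4 arrays). All cultures were asynchronous, were grown in the rich medium YEPD to an OD of 0.25, and were precipitated with an antibody against the MYC tag. The labels give no untagged culture or mock IP for any group, and whether arrays of a group shared an extract is not stated for single arrays, so the p-values measure the spread between arrays. Each value below is log2 of IP over input, where 0 is the median feature of that array, so a level is a level relative to the genome and not an absolute amount of bound protein.

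snRNAs are the RNA cores of the spliceosome, the machine that removes introns. snoRNAs guide chemical changes on ribosomal RNA: C/D box snoRNAs direct methylation of the ribose, and H/ACA box snoRNAs direct the conversion of uridine to pseudouridine. Most yeast snRNA and snoRNA genes are short, strongly transcribed by RNA polymerase II and free of introns, a few lie in introns or share a transcript, and SNR6 and SNR52 are transcribed by RNA polymerase III, the enzyme that also makes tRNA. Sheared chromatin fragments are usually longer than such genes, so each feature also reads DNA from its neighbours.

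Some arrays call for care. Array 136, a wild-type Pol2 array labelled with the IP in Cy5, correlated at -0.537 to -0.147 with the other arrays in the labelled direction, whereas other pairs of arrays correlated at -0.128 to 0.735. The deposited table had turned it, and it is used here turned, with the labelled direction given where it matters. On arrays 136 and 182, 49.7% and 54.0% of spots were flagged, and only 18 and 23 members were measured there. On array 031, an Rrm3 IP array, the SD over all features was 1.03, against 0.48 to 0.80 on the other Rrm3 IP arrays. Arrays 031 and 041, both of the Rrm3 IP, had another layout, with 18432 spots against 14976 on every other array. No Pol2 array had that layout. The RRM3 gene itself lay at percentiles 1.60 to 12.0 of input signal on 5 arrays labelled rrm3 delete and at percentile 50.05 on array 239, which goes against that array's label. The protocol text of array 086 also names a second antibody. The lists of genes and the members were picked with earlier results of these data known.

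As a group, the snRNA and snoRNA genes lay above the array median in the Rrm3 IP. By array, the median over the measured members was 0.21 (array 031), 0.40 (array 041), 0.56 (array 088), 0.64 (array 184) and 0.52 (array 185) in the Rrm3 IP. In the Pol2 IP on arrays labelled rrm3 delete, it ran from 0.08 through a median of 0.28 to 0.36. In the wild-type Pol2 IP it was 0.17 (array 039), 0.14 (array 086), -0.19 (array 136) and 0.06 (array 230). All Rrm3 IP arrays thus lay above all wild-type arrays, while array 031 lay within the range of the arrays labelled rrm3 delete and array 183 within the range of the wild type. As labelled, array 136 would stand at 0.19, above the other wild-type arrays and still below array 031. The members' median input signal stood at percentiles 36.5 to 70.2 of the array in the Rrm3 IP, 37.8 to 45.3 on arrays labelled rrm3 delete and 40.9 to 51.4 in wild type. In the Rrm3 IP, arrays 031 (58.54) and 041 (70.18), of the other layout, stood above the remaining arrays (36.53 to 44.15).

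**Figure D1:**
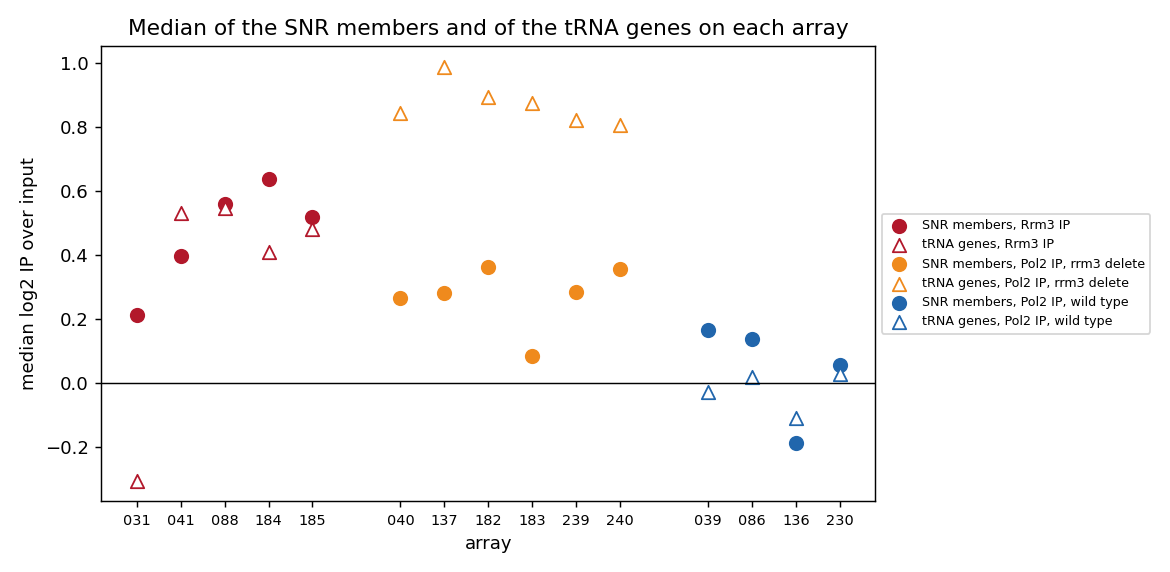
Median log2 IP over input on each array (x axis, grouped as Rrm3 IP, Pol2 IP on arrays labelled rrm3 delete and wild-type Pol2 IP) of the measured SNR members (filled circles) and of the tRNA genes (open triangles). SNR members were at 0.21 to 0.64 in the Rrm3 IP, 0.08 to 0.36 on arrays labelled rrm3 delete and -0.19 to 0.17 in wild type, whereas tRNA genes were highest on arrays labelled rrm3 delete.

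A limma fit of all features, with the dye as a term and Benjamini-Hochberg adjustment over the 12380 features, gave each member a level in each group. In the Rrm3 IP, 18 of 42 members were higher than the array median at an adjusted p under 0.05 and 0 were lower where 11.0% of all features were called higher and 12.7% lower. At unadjusted p under 0.05 there were 29 higher and 0 lower, against 17.8% and 20.1% of all features. The median level of the members was 0.50 and that of all features -0.02, and 40 of 42 members lay above 0. On arrays labelled rrm3 delete, 7 members were higher and 1 was lower, where 9.38% of all features were called higher and 6.91% lower. There the members' median was 0.25, and 32 of 42 lay above 0. In the wild-type Pol2 IP, 1 member was higher and 0 were lower by limma, where 0.937% and 2.37% of all features were called, and the members' median was 0.06. At unadjusted p under 0.05 these counts were 7 and 3, against 7.80% and 9.01% of all features. With array 136 as labelled, the counts of higher members were 17 in the Rrm3 IP, 7 on arrays labelled rrm3 delete and 0 in wild type, against 9.37%, 8.34% and 0.0404% of all features. Without array 184, 10 members were called higher in the Rrm3 IP, as were 4.94% of all features. The fit shares 1 estimate of the spread per feature over the 3 groups, so array 031 also bears on the p-values of both Pol2 groups. Without array 031, the counts were 23 higher in the Rrm3 IP, 13 higher and 2 lower on arrays labelled rrm3 delete, and 5 higher and 3 lower in wild type. Over all features the shares called higher then were 12.6%, 14.7% and 3.64% in that order of groups, and the shares called lower on arrays labelled rrm3 delete and in wild type were 11.6% and 5.22%.

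Set against each other, the groups differed in a common direction for most members, but no member's difference passed the test in the full set of arrays. The 3 differences share arrays with each other and so are not independent of one another. Rrm3 IP minus wild-type Pol2 IP was above 0 for 38 of 42 members, with a median of 0.36, and limma called 0 members in either direction (at unadjusted p under 0.05, 11 higher and 0 lower, against 4.62% and 6.29% of all features), where 0.00808% of all features were called higher and 0% lower. Rrm3 IP minus Pol2 IP on arrays labelled rrm3 delete was above 0 for 35 members, with a median of 0.19 and 0 calls by limma (at unadjusted p under 0.05, 10 higher and 0 lower, against 7.64% and 11.7% of all features), where 0.436% of all features were called higher and 1.94% lower. The Pol2 IP on arrays labelled rrm3 delete minus wild type was above 0 for 32 members, with a median of 0.17 and 0 calls by limma (at unadjusted p under 0.05, 3 higher and 0 lower, against 4.52% and 0.977% of all features, so that the count of 3 is near its background), where 0.557% of all features were called higher and 0% lower. Over all features, the share above 0 was 49.4% for Rrm3 minus wild type, 48.0% for Rrm3 minus rrm3 delete and 50.2% for rrm3 delete minus wild type. The fitted level was highest in the Rrm3 IP for 32 members, on arrays labelled rrm3 delete for 7 and in wild type for 3 (32, 5 and 5 in the labelled direction of array 136). With array 136 as labelled, the medians of these differences were 0.37, 0.18 and 0.12, each again with 0 members called.

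**Figure D2:**
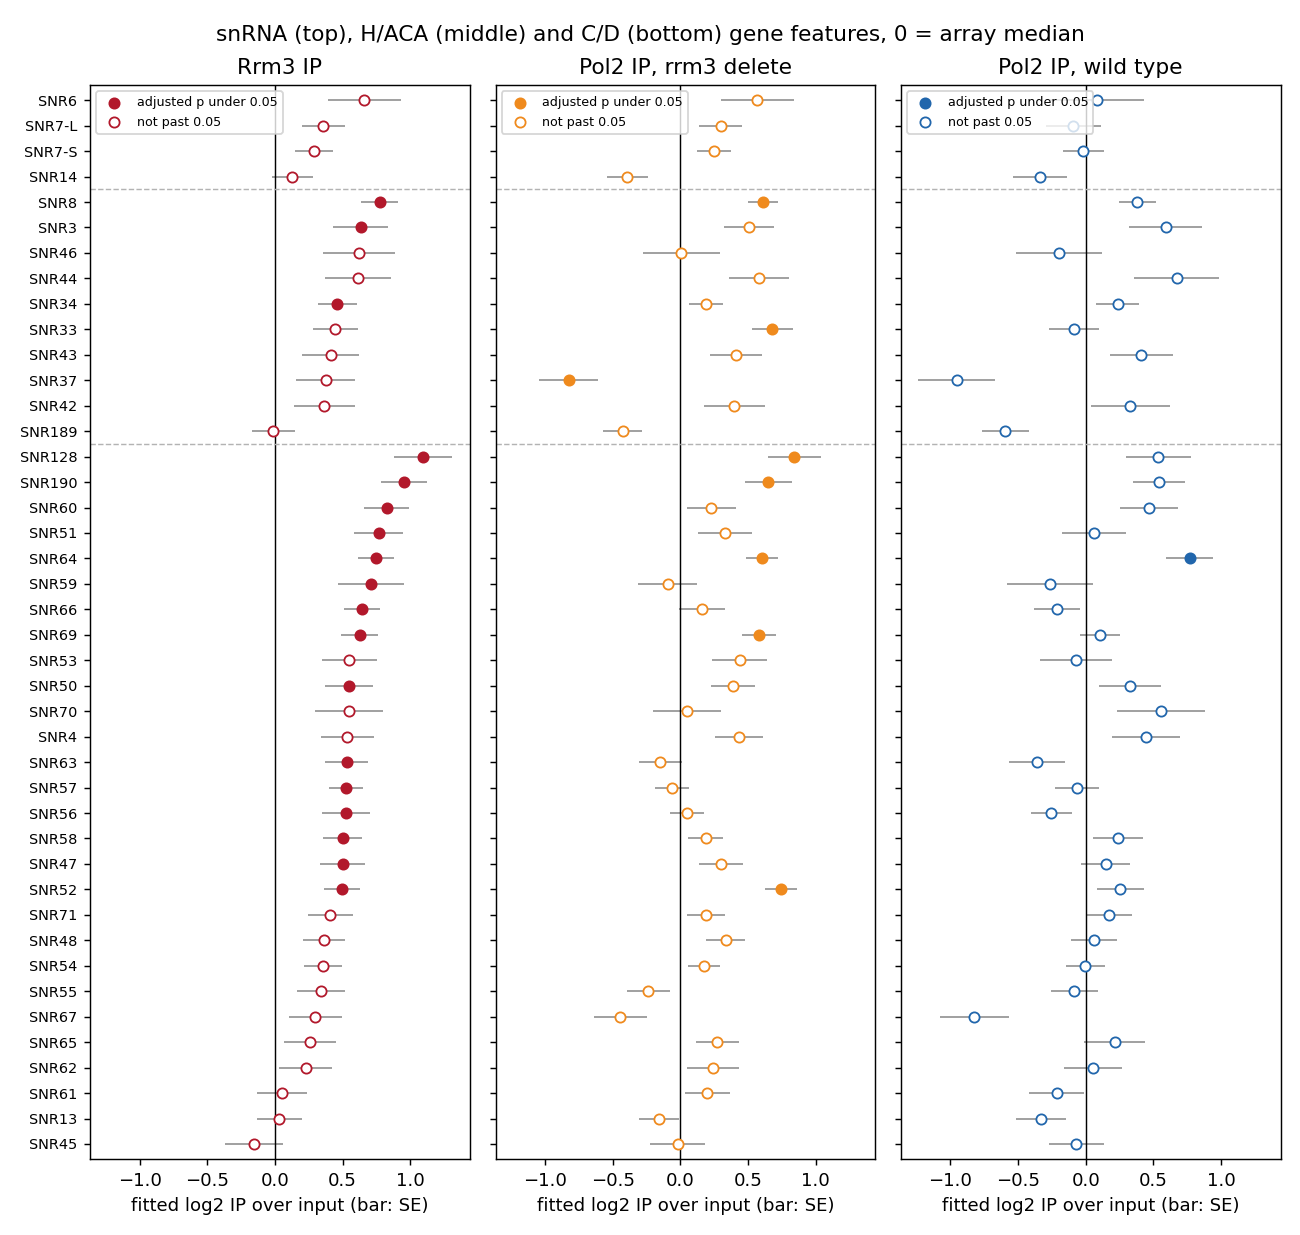
Fitted log2 IP over input (x axis, bars are standard errors of the fit) of the 42 tested members (rows) in the Rrm3 IP, the Pol2 IP on arrays labelled rrm3 delete and the wild-type Pol2 IP, grouped as snRNA, H/ACA and C/D genes and sorted by the Rrm3 IP level. Filled points passed adjusted p 0.05: 18 members in the Rrm3 IP, 8 on arrays labelled rrm3 delete (7 higher, 1 lower) and 1 in wild type.

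The spliceosomal snRNA genes on the array were SNR6, which encodes U6, SNR14, which encodes U4, and SNR7-L and SNR7-S, features for the long and short forms of U5. These last 2 overlap and read largely the same DNA, and SNR7-S is marked as a failed PCR product. None of the 4 passed the test in any group in the limma fit, with a median level of 0.32 in the Rrm3 IP, 0.27 on arrays labelled rrm3 delete and -0.05 in wild type. SNR7-L had fitted levels of 0.36 ± 0.16 in the Rrm3 IP, 0.30 ± 0.16 on arrays labelled rrm3 delete and -0.09 ± 0.21 in wild type (SE), and its Rrm3 IP level rested most on array 185, which stood at 1.03 when the other Rrm3 IP arrays stood between 0.08 and 0.32. SNR14 was on the other side of 0 in both Pol2 groups, at 0.13 ± 0.15 in the Rrm3 IP, -0.39 ± 0.15 on arrays labelled rrm3 delete (adjusted p = 0.096) and -0.34 ± 0.20 in wild type (SE). It was below 0 on all 5 arrays labelled rrm3 delete and all 3 wild-type arrays that measured it. LSR1, the gene of U2 snRNA, is not an SNR name, and had levels of 0.54 ± 0.31 in the Rrm3 IP, 0.27 ± 0.28 on arrays labelled rrm3 delete and 0.29 ± 0.34 in wild type (SE).

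The pair transcribed by RNA polymerase III was read against the tRNA genes, which are made by the same enzyme and are known sites where forks slow without Rrm3. SNR52 encodes a C/D box snoRNA that guides methylation of both ribosomal subunits' RNA. It stood at 0.21 (array 031), 0.69 (array 041), 0.50 (array 088), 0.64 (array 184) and 0.35 (array 185) in the Rrm3 IP. On the 6 arrays labelled rrm3 delete, SNR52 ran from 0.36 through a median of 0.76 to 1.14. In the wild-type Pol2 IP, SNR52 was 0.41 (array 039), 0.08 (array 086) and 0.18 (array 230). Every array that measured SNR52 was above 0, and 1 array labelled rrm3 delete (array 137) lay within the wild-type range. The fitted level passed the test in the Rrm3 IP (0.50 ± 0.13, SE, limma adjusted p = 0.015) and on arrays labelled rrm3 delete (0.75 ± 0.12, SE, limma adjusted p = 0.00051). That was the smallest adjusted p of any member on those arrays. In wild type it was 0.26 ± 0.17 (SE, limma adjusted p = 0.50). The difference between arrays labelled rrm3 delete and wild type was 0.49 ± 0.21 (SE, 95% interval 0.05 to 0.93, limma adjusted p = 0.77), and so did not pass. Without array 184 the Rrm3 IP level was 0.49 with an adjusted p of 0.051.

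SNR6, the gene of U6 snRNA, which sits in the spliceosome's catalytic core, was far more scattered. It stood at 1.003 (array 031), -0.07 (array 041), -0.57 (array 088), 1.95 (array 184) and 0.52 (array 185) in the Rrm3 IP. On the 5 arrays labelled rrm3 delete that measured it, it was 0.76 (array 040), -1.06 (array 137), 1.12 (array 183), 0.33 (array 239) and 1.22 (array 240). In the wild-type Pol2 IP it was -0.22 (array 039), -0.10 (array 086) and 0.10 (array 230). Within the Rrm3 IP and the rrm3 delete arrays, SNR6 spanned both sides of 0, so that the wild-type arrays lay inside the range of both. Its fitted levels were 0.66 ± 0.27 in the Rrm3 IP (limma adjusted p = 0.087), 0.57 ± 0.27 on arrays labelled rrm3 delete (limma adjusted p = 0.17) and 0.08 ± 0.35 in wild type (SE). Single arrays decided these calls: without array 088 the Rrm3 IP level was 0.85 with an adjusted p of 0.048, and without array 137 the level on arrays labelled rrm3 delete was 0.86 with an adjusted p of 0.043. SNR6 and SNR52 were the dimmest members in the input channel, at median percentiles of 14.9 and 15.1.

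The tRNA genes had their highest levels on arrays labelled rrm3 delete. In the Rrm3 IP, 14 of 41 tRNA genes were called higher, with a median level of 0.31, on arrays labelled rrm3 delete 38 of 41 with a median of 0.85, and in wild type 1 of 41 with a median of -0.00. The shares called higher over all features were 11.0%, 9.38% and 0.937% in that order of groups. For the difference between arrays labelled rrm3 delete and wild type, 8 of 41 tRNA genes were called higher, where 0.557% of all features were. In that difference the tRNA genes had a median of 0.91 and a range of 0.43 to 1.64. SNR6 (0.49 ± 0.44) and SNR52 (0.49 ± 0.21, SE) both lay near the low end of that range, and SNR33 (0.76) and SNR53 (0.51) were the members with larger values. On each of the 6 arrays labelled rrm3 delete the tRNA median, 0.81 to 0.99, was above the median of the SNR members. Array 031 was the only Rrm3 IP array on which the tRNA median lay below 0, at -0.30, when it was 0.41 to 0.55 on the other 4.

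The intergenic region named ISNR6, whose side of SNR6 the files do not give, was steadier than SNR6 itself. Its fitted level was 0.14 ± 0.14 in the Rrm3 IP, 1.06 ± 0.12 on arrays labelled rrm3 delete (SE, limma adjusted p = 2.7e-05) and 0.34 ± 0.17 in wild type. The difference between the Rrm3 IP and arrays labelled rrm3 delete was -0.93 ± 0.18 (SE, limma adjusted p = 0.015), the only such difference called among the 33 tested regions that carry a member's name. Over all features, 1.94% were called lower in that difference, so 1 of 33 is near its background. The difference between arrays labelled rrm3 delete and wild type, 0.73 ± 0.20 (SE), did not pass (limma adjusted p = 0.20). The genes on either side of SNR6 were not higher: REX3, which encodes an RNA exonuclease, was at -0.63 ± 0.12 in the Rrm3 IP and -0.40 ± 0.12 on arrays labelled rrm3 delete (SE), both called lower, and YLR108C was called lower in the Rrm3 IP at -0.51 ± 0.12 (SE).

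**Figure D3:**
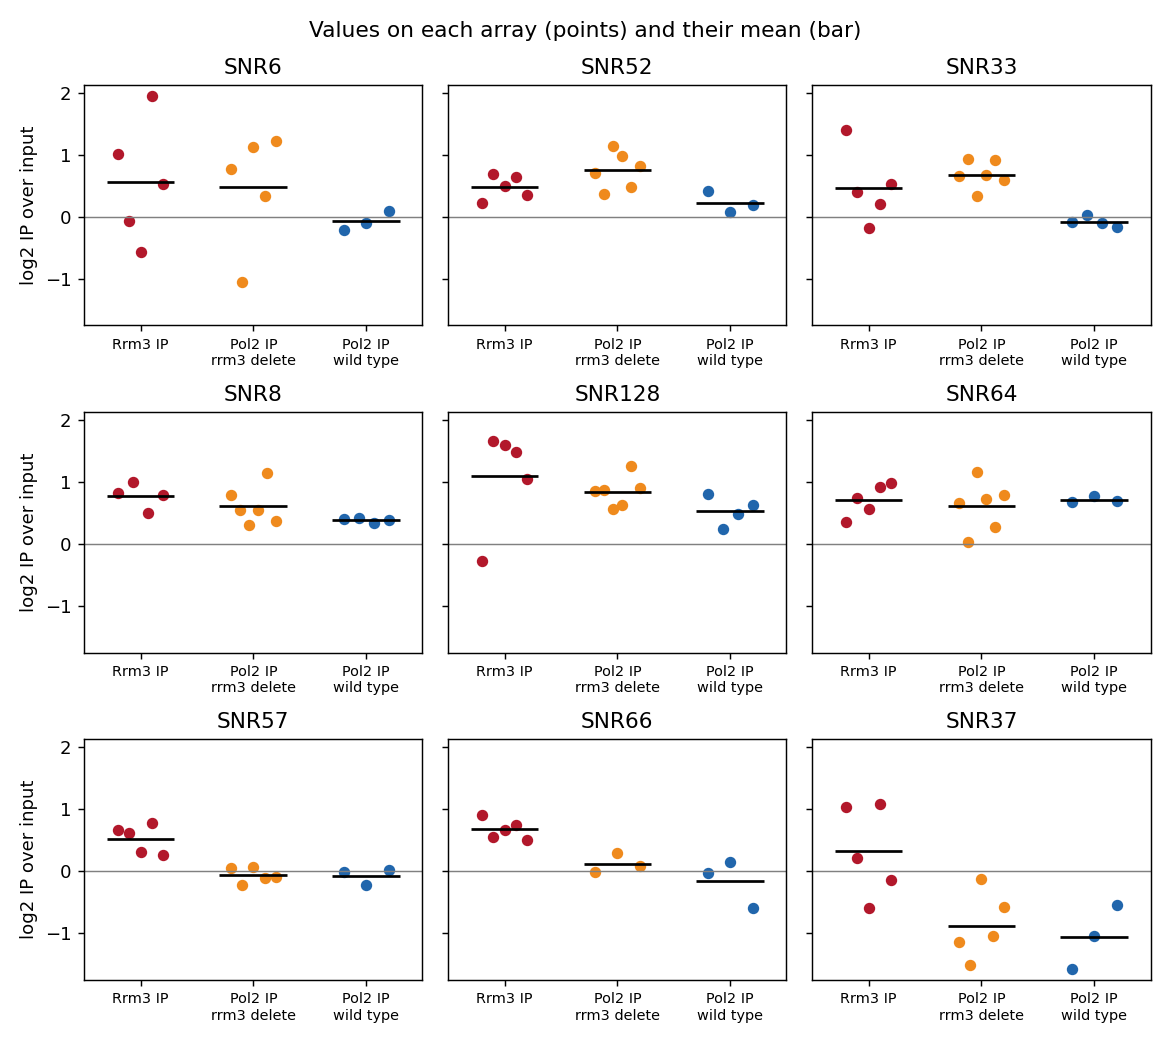
Log2 IP over input of 9 members on each array (points) with the plain mean over arrays (bar), in the Rrm3 IP, the Pol2 IP on arrays labelled rrm3 delete and the wild-type Pol2 IP. SNR6 spans -1.06 to 1.95, SNR52 is above 0 on every array, SNR33 on arrays labelled rrm3 delete (0.33 to 0.92) lies above all wild-type arrays, and SNR57 and SNR66 in the Rrm3 IP lie above all arrays of the other groups.

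The C/D box genes were the largest class, with 28 tested beside 10 H/ACA box genes. Of the 28, 15 were called higher in the Rrm3 IP, 5 on arrays labelled rrm3 delete and 1 in wild type. Over all features the shares called higher were 11.0%, 9.38% and 0.937% in that order of groups. The class had median levels of 0.53, 0.22 and 0.06 in the same order. Of the 28, 0 were called lower, where 12.7%, 6.91% and 2.37% of all features were. The highest member in the Rrm3 IP and on arrays labelled rrm3 delete was SNR128, the gene of U14, a C/D box snoRNA needed to process the small-subunit ribosomal RNA. SNR128 was -0.28 (array 031), 1.66 (array 041), 1.60 (array 088), 1.47 (array 184) and 1.04 (array 185) in the Rrm3 IP. It ran from 0.56 through a median of 0.85 to 1.25 on arrays labelled rrm3 delete, and was 0.80 (array 039), 0.24 (array 086), 0.47 (array 136) and 0.63 (array 230) in wild type. All arrays but array 031 were above 0 with array 136 turned (as labelled it was at -0.47), and 3 of the 5 Rrm3 IP arrays exceeded every other array of the study's groups. Fitted levels were 1.10 ± 0.22 in the Rrm3 IP (limma adjusted p = 0.0034), 0.84 ± 0.20 on arrays labelled rrm3 delete (limma adjusted p = 0.0068) and 0.54 ± 0.24 in wild type (SE, limma adjusted p = 0.26). The wild-type level of SNR128 was 0.32 ± 0.27 with array 136 as labelled (SE, limma adjusted p = 0.82).

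SNR190, a C/D box gene that lies next to SNR128 and is cut from the same transcript, was 0.04 (array 031), 1.08 (array 041), 1.13 (array 088), 1.43 (array 184) and 0.98 (array 185) in the Rrm3 IP. Its level was 0.28 to 1.02 on arrays labelled rrm3 delete and 0.27 to 0.99 in wild type. The 0.99 was array 136 turned, which as labelled gives -0.99. All other arrays that measured SNR190 were above 0, and the 3 groups overlapped. It was called in the Rrm3 IP (0.96 ± 0.17, SE, limma adjusted p = 0.0024) and on arrays labelled rrm3 delete (0.65 ± 0.17, SE, limma adjusted p = 0.017), a call lost without array 137 (0.62, adjusted p = 0.059) or array 239 (0.53, adjusted p = 0.086). The wild-type level of SNR190 was 0.54 ± 0.19 with array 136 turned and 0.11 ± 0.24 with it as labelled (SE, limma adjusted p = 0.95). The region ISNR128 was called higher in all 3 groups, at 0.99 ± 0.14 in the Rrm3 IP, 0.71 ± 0.15 on arrays labelled rrm3 delete and 0.76 ± 0.15 in wild type (SE), although its wild-type call was lost with array 136 as labelled (0.22 ± 0.25, SE, limma adjusted p = 0.88). The gene beyond SNR128, DAS1, had 0.07 ± 0.14, 0.08 ± 0.14 and 0.01 ± 0.15 in the same order, and RPA34 beyond SNR190, a subunit gene of RNA polymerase I, was called higher in the Rrm3 IP (0.52 ± 0.16) but was at -0.14 ± 0.18 on arrays labelled rrm3 delete and -0.11 ± 0.21 in wild type (SE).

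SNR64, a C/D box gene whose snoRNA guides methylation of the large-subunit ribosomal RNA, was the one member called higher in all 3 groups. It was 0.35 (array 031), 0.73 (array 041), 0.55 (array 088), 0.92 (array 184) and 0.98 (array 185) in the Rrm3 IP. On arrays labelled rrm3 delete it ran from 0.03 through a median of 0.69 to 1.15. The 3 wild-type arrays that measured it gave 0.67 (array 039), 0.76 (array 086) and 0.68 (array 230). The wild-type values were the tightest, and lay inside the range of both other groups. Fitted levels were 0.75 ± 0.13 in the Rrm3 IP, 0.60 ± 0.12 on arrays labelled rrm3 delete and 0.77 ± 0.17 in wild type (SE, limma adjusted p = 0.0023, 0.0028 and 0.022). The wild-type call was lost without array 039, 086 or 230 (adjusted p = 0.18, 0.18 and 0.060) and with array 136 as labelled (adjusted p = 0.086), a fit in which the level stayed at 0.77. Its neighbour UBA1, the gene of the ubiquitin-activating enzyme, was called higher in the Rrm3 IP (0.42 ± 0.13) and on arrays labelled rrm3 delete (0.44 ± 0.13, SE), and TRP3, on the other side, was not called in any group.

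SNR69, another C/D box guide for the large-subunit ribosomal RNA, was higher in the Rrm3 IP (0.63 ± 0.14, limma adjusted p = 0.0056) and on arrays labelled rrm3 delete (0.58 ± 0.12, limma adjusted p = 0.0036) and stood at 0.11 ± 0.15 in wild type (SE). By array, SNR69 was 0.24 to 0.87 in the Rrm3 IP, 0.14 to 0.87 on arrays labelled rrm3 delete and -0.14 to 0.29 in wild type, where the -0.14 was array 136 turned. Its difference between arrays labelled rrm3 delete and wild type, 0.48 ± 0.20 (SE, 95% interval 0.07 to 0.89), did not pass (limma adjusted p = 0.70). RGT1, the neighbouring gene of a glucose-responsive repressor, was called higher in the same groups, at 0.39 ± 0.14 in the Rrm3 IP and 0.60 ± 0.14 on arrays labelled rrm3 delete (SE).

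The other C/D box genes called in the Rrm3 IP were called in that group only, which by itself does not show a difference between groups. They were SNR60 (0.83), SNR51 (0.77), SNR59 (0.71), SNR66 (0.64), SNR50 (0.55), SNR63 (0.53), SNR57 (0.53), SNR56 (0.53), SNR58 (0.50) and SNR47 (0.50), guides for ribose methylation of ribosomal RNA, with standard errors of 0.13 to 0.24. SNR59 rested on array 031, where it was 2.17 when it was 0.17 to 0.62 on the other 4 Rrm3 IP arrays. Without array 031 it was 0.32 (adjusted p = 0.095), and its call was lost in 16 of 30 alternatives. SNR50 likewise stood at 1.496 on array 031 and at 0.04 to 0.47 on the other 4. Without array 031, SNR50 was 0.32 (adjusted p = 0.095), and its call was lost in 6 of 30 alternatives. SNR56 lost its call in 15 of 29, and without array 184 was 0.34 (adjusted p = 0.26). Calls were also lost without array 041 for SNR63, without array 088 for SNR47, SNR50, SNR58 and SNR63, without array 184 for SNR47, SNR50, SNR51 and SNR63, and without array 185 for SNR47, SNR58 and SNR59 (adjusted p = 0.053 to 0.12). At the lower end of the class in the Rrm3 IP were SNR61 (0.05 ± 0.18), SNR13 (0.03 ± 0.16) and SNR45 (-0.15 ± 0.21, SE), none of which was called in any group. SNR45, which with SNR4 guides acetylation of the small-subunit ribosomal RNA, had a region, ISNR45, at 1.36 ± 0.40 in the Rrm3 IP (SE, limma adjusted p = 0.028).

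SNR57 and SNR66 were the pair of members whose Rrm3 IP arrays all lay above both other groups. SNR57, a guide for the small-subunit ribosomal RNA, was 0.66 (array 031), 0.62 (array 041), 0.30 (array 088), 0.78 (array 184) and 0.26 (array 185) in the Rrm3 IP, -0.23 to 0.07 on 5 arrays labelled rrm3 delete, and -0.02 (array 039), -0.23 (array 086) and 0.01 (array 230) in wild type. Its differences were 0.60 ± 0.20 from wild type (SE, 95% interval 0.16 to 1.03, limma adjusted p = 0.33) and 0.59 ± 0.18 from arrays labelled rrm3 delete (SE, 95% interval 0.21 to 0.96, limma adjusted p = 0.095). SNR66, a guide for the large-subunit ribosomal RNA that lies next to NME1, the RNase MRP RNA gene, was 0.90 (array 031), 0.55 (array 041), 0.66 (array 088), 0.74 (array 184) and 0.49 (array 185) in the Rrm3 IP, -0.01 to 0.28 on 3 arrays labelled rrm3 delete, and -0.04 (array 039), 0.14 (array 086) and -0.60 (array 230) in wild type. Its differences were 0.86 ± 0.21 from wild type (SE, limma adjusted p = 0.26) and 0.48 ± 0.22 from arrays labelled rrm3 delete (SE, limma adjusted p = 0.25).

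Counted over all members, 7 of 42 had every Rrm3 IP array above every wild-type array (SNR8, SNR57, SNR59, SNR63, SNR66, SNR67 and SNR189), where 2.71% of all features did, and 0 had every array below, where 2.38% of all features did. With array 136 as labelled the count was again 7, with SNR55 in place of SNR189, against 2.74% of all features. SNR57, SNR59, SNR63, SNR66 and SNR67 had values on only 3 wild-type arrays, and fewer arrays make a lack of overlap easier. Between the Rrm3 IP and arrays labelled rrm3 delete, 2 members had every array above (SNR57 and SNR66) and 0 every array below, where 1.75% and 3.28% of all features did. Between arrays labelled rrm3 delete and wild type, 1 had every array above (SNR33) and 0 every array below, where 4.82% and 1.67% of all features did, so that the count of 1 is no more than its background (1 and 4.39% of all features with array 136 as labelled). Within a group, 20 members lay above the array median on every Rrm3 IP array and 0 below it on every one, where 11.5% and 10.5% of all features did. On arrays labelled rrm3 delete these counts were 14 and 3 (17.5% and 16.6% of all features), and in wild type 14 and 7 (20.1% and 21.8% of all features), or 12 and 6 with array 136 as labelled (13.9% and 14.7% of all features).

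Of the 10 H/ACA box genes, 3 were called higher in the Rrm3 IP (SNR8, SNR3 and SNR34), where 11.0% of all features were. On arrays labelled rrm3 delete 2 were higher (SNR8 and SNR33) and 1 lower (SNR37), where 9.38% and 6.91% of all features were. In wild type 0 were called by limma, where 0.937% of all features were called higher and 2.37% lower. Median levels of the 10 genes were 0.45, 0.41 and 0.28 in that order of groups. The Rrm3 IP calls of SNR3 (0.63) and SNR34 (0.46) were lost without array 184, when SNR3 was 0.37 (adjusted p = 0.23) and SNR34 0.31 (adjusted p = 0.26). SNR3 lost its call in 5 of 30 alternatives, also without array 041 or 088, and SNR34 in 7 of 30, also without array 040 or 088. SNR8 guides pseudouridine formation in the large-subunit ribosomal RNA. It was 0.82 (array 041), 0.995 (array 088), 0.50 (array 184) and 0.78 (array 185) in the Rrm3 IP, from 0.30 through a median of 0.54 to 1.14 on arrays labelled rrm3 delete, and 0.39 (array 039), 0.42 (array 086), 0.33 (array 136) and 0.38 (array 230) in wild type. With array 136 turned, all arrays were above 0 (as labelled it was at -0.33), and in either direction the 4 Rrm3 IP arrays lay above the 4 wild-type arrays. Fitted levels were 0.77 ± 0.14 in the Rrm3 IP (limma adjusted p = 0.0022), 0.61 ± 0.11 on arrays labelled rrm3 delete (limma adjusted p = 0.0014) and 0.38 ± 0.14 in wild type (SE, limma adjusted p = 0.16). In wild type it was 0.16 ± 0.17 with array 136 as labelled (SE, limma adjusted p = 0.87). Its call on arrays labelled rrm3 delete held in all 30 alternatives.

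SNR33, an H/ACA guide for the large-subunit ribosomal RNA, lies next to the tRNA gene SUF16. It was 1.39 (array 031), 0.40 (array 041), -0.18 (array 088), 0.20 (array 184) and 0.52 (array 185) in the Rrm3 IP. On arrays labelled rrm3 delete it ran from 0.33 through a median of 0.66 to 0.92, and in wild type it was -0.09 (array 039), 0.02 (array 086), -0.10 (array 136) and -0.17 (array 230). All arrays labelled rrm3 delete lay above all wild-type arrays, while the Rrm3 IP arrays spread over both. Its fitted level was 0.45 ± 0.17 in the Rrm3 IP (limma adjusted p = 0.059), 0.68 ± 0.15 on arrays labelled rrm3 delete (limma adjusted p = 0.0051) and -0.09 ± 0.18 in wild type (SE). The difference between arrays labelled rrm3 delete and wild type, 0.76 ± 0.24 (SE, 95% interval 0.26 to 1.27), did not pass with all arrays (limma adjusted p = 0.29) and passed without array 031 (0.76, adjusted p = 0.026). Array 031 belongs to neither of these groups, and leaving it out changed the shared estimate of the spread, not the difference. The region ISNR33 was called higher in the Rrm3 IP (0.76 ± 0.21) and on arrays labelled rrm3 delete (0.84 ± 0.19, SE), while CTO1, the protein gene on the other side, was at -0.19 ± 0.24 in the Rrm3 IP, -0.52 ± 0.24 on arrays labelled rrm3 delete and -0.51 ± 0.31 in wild type (SE).

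Besides SNR33, 3 members have a tRNA gene as a direct neighbour: SNR46, SNR53 and SNR61. The 4 together had a median level of 0.50 in the Rrm3 IP, 0.32 on arrays labelled rrm3 delete and -0.14 in wild type, and all 4 had a higher fitted level on arrays labelled rrm3 delete than in wild type (0.21 to 0.76, median 0.46), as 32 of all 42 members did. The median of that difference was 0.49 over the 238 tested regions beside tRNA genes. Of the 4, only SNR33 was called in any group. The distance from each member to its tRNA gene was not used here.

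SNR37, an H/ACA guide for the large-subunit ribosomal RNA, was the one member called lower in any group. It was 1.03 (array 031), 0.20 (array 041), -0.59 (array 088), 1.08 (array 184) and -0.14 (array 185) in the Rrm3 IP. On the 5 arrays labelled rrm3 delete that measured it, it was -1.14 (array 040), -1.52 (array 137), -0.13 (array 183), -1.05 (array 239) and -0.58 (array 240), and in wild type -1.58 (array 039), -1.05 (array 086) and -0.54 (array 230). SNR37 was below 0 on all arrays of both Pol2 groups and on 2 of the 5 Rrm3 IP arrays, and the Rrm3 IP range overlapped both others. Fitted levels were 0.38 ± 0.22 in the Rrm3 IP, -0.82 ± 0.22 on arrays labelled rrm3 delete (limma adjusted p = 0.017) and -0.96 ± 0.28 in wild type (SE, limma adjusted p = 0.082). Rrm3 IP minus wild type was 1.33 ± 0.35 (SE, limma adjusted p = 0.26), the largest such difference among the members. Rrm3 IP minus rrm3 delete was 1.20 ± 0.31 (SE, limma adjusted p = 0.053), and passed without array 031 (0.95, adjusted p = 0.0496), without array 088 (1.38, adjusted p = 0.028) and without array 185 (1.44, adjusted p = 0.013). The call on arrays labelled rrm3 delete was lost without array 040, 137 or 240 (adjusted p = 0.055, 0.072 and 0.070). It was also lost with flagged spots kept, when the level was -0.31 (limma adjusted p = 0.65). The adjoining gene GSM1 was called lower in all 3 groups, at -1.16 ± 0.13 in the Rrm3 IP, -0.58 ± 0.12 on arrays labelled rrm3 delete and -0.60 ± 0.14 in wild type (SE), the last not called with array 136 as labelled (-0.25 ± 0.21, SE, limma adjusted p = 0.80), so the Rrm3 IP levels of SNR37 and of GSM1 lay on opposite sides of the array median.

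In all, 10 of 42 members (23.8%) had a fitted level below 0 on arrays labelled rrm3 delete, as did 49.9% of all features. In wild type 19 members (45.2%) did, near the 48.1% of all features. SNR67 and SNR189 were the lowest members in wild type after SNR37. SNR67, a C/D box guide that shares a transcript with SNR53, had 0.30 ± 0.20 in the Rrm3 IP, -0.45 ± 0.20 on arrays labelled rrm3 delete and -0.82 ± 0.25 in wild type (SE), none of them called. SNR189, an H/ACA guide, had -0.01 ± 0.16 in the Rrm3 IP, -0.43 ± 0.14 on arrays labelled rrm3 delete (limma adjusted p = 0.051) and -0.59 ± 0.18 in wild type (SE, limma adjusted p = 0.073), and the 4 wild-type arrays lay within -0.62 to -0.57 with array 136 turned. For SNR67 every Rrm3 IP array lay above the 3 wild-type arrays that measured it. For SNR189 every Rrm3 IP array lay above every wild-type array only with array 136 turned. As labelled, array 136 stood at 0.57, and the wild-type level of SNR189 was then -0.39 ± 0.22 (SE, limma adjusted p = 0.63).

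The 3 members inside introns were read with their host genes, whose PCR products cover the same transcript. SNR44, an H/ACA gene in RPS22B, a ribosomal protein gene, had 0.62 ± 0.24 in the Rrm3 IP, 0.58 ± 0.22 on arrays labelled rrm3 delete and 0.67 ± 0.31 in wild type (SE), with none called, and RPS22B had 0.53 ± 0.27 in the Rrm3 IP and 0.37 ± 0.24 on arrays labelled rrm3 delete (SE). SNR54, in IMD4, a gene of guanine nucleotide synthesis, had 0.36 ± 0.14 in the Rrm3 IP and 0.17 ± 0.12 on arrays labelled rrm3 delete, with neither called, although IMD4 was called in both, at 0.60 ± 0.13 and 0.51 ± 0.12 (SE). SNR59, in RPL7B, another ribosomal protein gene, was called in the Rrm3 IP (0.71 ± 0.24), as was RPL7B (0.62 ± 0.17, SE).

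Of the 9 members in clusters that share a transcript, 4 were called higher in the Rrm3 IP and 2 on arrays labelled rrm3 delete (SNR128 and SNR190), with a median level of 0.55 in the Rrm3 IP, 0.20 on arrays labelled rrm3 delete and -0.07 in wild type. SNR51 and its neighbour SNR70 had 0.77 ± 0.18 and 0.55 ± 0.25 in the Rrm3 IP, 0.33 ± 0.20 and 0.05 ± 0.25 on arrays labelled rrm3 delete, and 0.06 ± 0.23 and 0.56 ± 0.33 in wild type (SE). SNR57, SNR55 and SNR61, another cluster, had 0.53 ± 0.13, 0.34 ± 0.18 and 0.05 ± 0.18 in the Rrm3 IP (SE). Members outside introns and clusters had 13 of 30 called higher in the Rrm3 IP, beside 18 of 42 over all members. Of the 8 members beside a ribosomal protein gene, 4 were called higher in the Rrm3 IP and 0 in either Pol2 group by limma. Over all features, 11.0% were called higher in the Rrm3 IP, 9.38% on arrays labelled rrm3 delete and 0.937% in wild type. For so few genes, 0 calls in a Pol2 group is near that background.

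Intergenic regions that carry a member's name were also often called higher in the Rrm3 IP. Of 33 tested, 14 were called higher and 0 lower there, where 11.0% and 12.7% of all features were. On arrays labelled rrm3 delete 4 were higher and 2 lower (9.38% and 6.91% of all features). In wild type 1 was higher and 1 lower (0.937% and 2.37% of all features). The counts in the 2 Pol2 groups are near their background. Median levels of the regions were 0.44 in the Rrm3 IP, 0.08 on arrays labelled rrm3 delete and 0.04 in wild type. Over the 32 pairs with both features tested, the level of the region and of its member correlated at r = 0.26 in the Rrm3 IP, 0.58 on arrays labelled rrm3 delete and 0.51 in wild type. These correlations run across pairs that share arrays, neighbouring DNA and depth of labelling, and are given as a description. In the Rrm3 IP, the region was called higher in 13 of the 32 pairs, and 7 pairs had both features called higher. Whether 7 is more than the separate shares of regions and members would give was not tested.

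The genes on either side of the called members gave their own levels. Around the 18 members called higher in the Rrm3 IP, 28 flanking genes other than SNR genes were tested, of which 7 were called higher and 1 lower, with a median level of 0.06. Around the 7 members called higher on arrays labelled rrm3 delete, 4 of 11 flanking genes were called higher, with a median level of 0.19. The flanking genes were chosen through their called neighbours, so these counts describe the surroundings of those members and were not set against other genes.

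**Figure D4:**
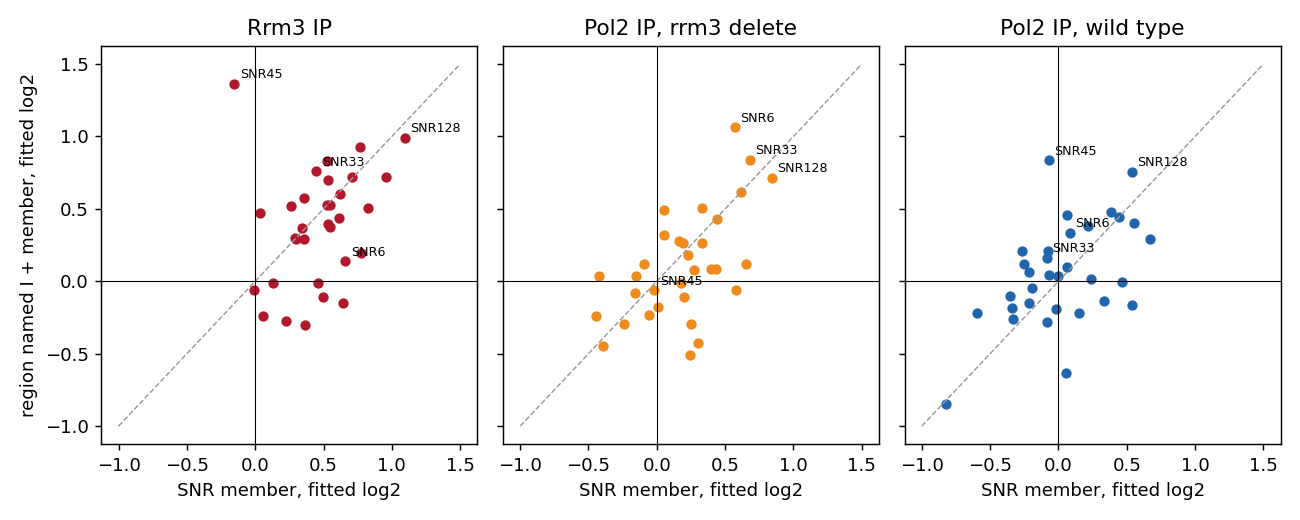
Fitted log2 IP over input of each SNR member (x axis) and of the intergenic region that carries its name (y axis) for 32 pairs in the Rrm3 IP, the Pol2 IP on arrays labelled rrm3 delete and the wild-type Pol2 IP, with the line of equal values dashed. ISNR6 stands at 1.06 on arrays labelled rrm3 delete and at 0.14 in the Rrm3 IP, and ISNR45 at 1.36 in the Rrm3 IP beside SNR45 at -0.15.

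Protein genes of the same pathways were counted from lists of known members. Of 7 core protein genes of snoRNA particles (such as NOP1, the methylase of C/D particles, and CBF5, the pseudouridine synthase of H/ACA particles), 4 were called higher in the Rrm3 IP and 0 in either Pol2 group by limma, with median levels of 0.38, 0.12 and 0.27. Of 6 tested Sm protein genes, which encode the ring of proteins on snRNAs, 2 were higher and 2 lower in the Rrm3 IP, 3 higher and 1 lower on arrays labelled rrm3 delete, and 0 were called in wild type. Of 9 genes of RNA polymerase III transcription factors, 1 was higher and 3 were lower in the Rrm3 IP, with 0 called in either Pol2 group by limma. Over all features, 11.0% were called higher and 12.7% lower in the Rrm3 IP. These shares were 9.38% and 6.91% on arrays labelled rrm3 delete, and 0.937% and 2.37% in wild type. For lists this short, 0 calls in a Pol2 group is near that background.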

How the data were processed

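Each array compared IP DNA with input DNA on a PCR-product array. The deposited scanner files hold the channel intensity medians and local backgrounds that the authors scanned, and a deposited log2 column of IP over input, which per the labels was median-normalised. Here the deposited medians were background-subtracted, flagged spots and signals at or below 0 were left out, log2 ratios were turned to IP over input, spots of a name were averaged, and each array was centred on its median. The deposited log2 column served as an alternative (correlation with the values used 0.999 to 1 on each array). Its scale and direction were as here, array 136 turned. All 15 grouped arrays entered 1 limma fit (R 4.3.3, limma 3.58.1) with group means and a dye term, for names with values on 3 or more arrays in each group. The threshold was an adjusted p of 0.05, two-sided. The number of arrays limits the precision. The script was tested on simulated data. Tables and figures used Python 3.11.15, pandas 2.3.3 and matplotlib 3.10.9. Alternatives changed the background, the spot filter, the normalisation, the dye term, the direction of array 136 and the arrays used. Array 231, whose labels contradict each other, entered no comparison. Members and lists were chosen with earlier results of these data known. Named were SNR6, SNR52, the spliceosomal members, every called member, the 3 highest and 3 lowest members of each contrast and the neighbours of all of these, with lower-ranked members added where a class or neighbour was described.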

Additional observations from a re-analysis of the deposited data

Results flagged for a closer look

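A single array stood far from the rest of its group for 5 members (for SNR43 in both the Rrm3 IP and wild type) and for the members' median. It was looked for in 104 groups of 4 to 6 arrays and found in 7. Chance alone finds about 1 in 20. In the Rrm3 IP, array 031 was low for SNR13 (-0.81, other arrays 0.04 to 0.36) and SNR43 (-1.10, others 0.52 to 0.94) and high for SNR59 (2.17, others 0.17 to 0.62), and array 185 was high for SNR7-L (1.03, others 0.08 to 0.32). Array 031 also had the widest spread over all features. On arrays labelled rrm3 delete, array 239, whose RRM3 input signal goes against its label, was high for SNR55 (0.55, others -0.56 to -0.27), and array 183 was low for the median of the members (0.084, others 0.27 to 0.36). In wild type, array 230 was high for SNR43 (0.59, others 0.34 to 0.37) with array 136 turned, which as labelled is at -0.34.

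For SNR59 and SNR63, every Rrm3 IP array lay above 0 and the 3 wild-type arrays that measured them lay below 0. Rrm3 IP minus wild type was 0.98 ± 0.39 for SNR59 (limma adjusted p = 0.40) and 0.89 ± 0.26 for SNR63 (SE, limma adjusted p = 0.29), so neither difference passed the test.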

How the results depend on the processing

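The medians of the members kept their sign in every alternative: 0.37 to 0.55 in the Rrm3 IP, 0.21 to 0.27 on arrays labelled rrm3 delete, 0.01 to 0.17 in wild type, 0.30 to 0.46 for Rrm3 IP minus wild type, 0.14 to 0.37 for Rrm3 IP minus rrm3 delete and 0.06 to 0.19 for rrm3 delete minus wild type. Counts of calls moved more, and the cause was not tested beyond the smaller number of arrays in some alternatives. With the forward-dye arrays alone, calls higher than the array median were 0 in the Rrm3 IP, 1 on arrays labelled rrm3 delete and 0 in wild type, against 1.37%, 2.96% and 0% of all features. Without arrays 031 and 041, which have another layout, 13 members were higher and 2 lower on arrays labelled rrm3 delete, 5 higher and 2 lower in wild type, and 1 higher (SNR33) in rrm3 delete minus wild type, against 15.4%, 12.3%, 4.05%, 5.85% and 2% of all features in that order. In the Rrm3 IP, the group of both arrays, SNR50, SNR56, SNR59 and SNR63 lost their calls in that fit. The other members called there with all arrays kept theirs. Without arrays 031, 086, 136 and 239, an alternative chosen after seeing the data, 21 were higher in the Rrm3 IP, 11 higher and 2 lower on arrays labelled rrm3 delete and 0 higher in wild type, against 10.2%, 10.4%, 7.45% and 0.370% of all features. Members lower on arrays labelled rrm3 delete numbered 2 with loess, with flagged spots kept, with dim spots left out and without arrays 136 and 182, against 8.30%, 5.93%, 7.30% and 5.89% of all features. SNR37 was not among the 2 with flagged spots kept. Members lower in wild type numbered 2 with loess and 1 with flagged spots kept (3% and 2.16% of all features), and members higher in wild type 0 without a dye term and with array 136 as labelled (0.606% and 0.0404%). Rrm3 IP minus rrm3 delete had 1 call (SNR37) without background subtraction, with loess, without failed PCR products and without dim spots, against 0.355% to 0.598% of all features. With flagged spots kept, 12 were higher in the Rrm3 IP, against 7.91% of all features.

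Leaving out 1 array at a time, the Rrm3 IP had 10 to 23 members higher and 0 lower, arrays labelled rrm3 delete 6 to 13 higher and 0 to 2 lower, and wild type 0 to 5 higher and 0 to 3 lower. Rrm3 IP minus rrm3 delete had 0 to 2 higher, rrm3 delete minus wild type 0 to 1 higher and Rrm3 IP minus wild type 0. The share called over all features moved too, as given above for the fits without array 184 or array 031. These ranges alone therefore do not tell a change in the members from a change over all features. Medians stayed within 0.44 to 0.55, 0.21 to 0.27, 0.01 to 0.09, 0.34 to 0.40, 0.14 to 0.33 and 0.11 to 0.19, in the order of the first sentence. Of 2422 values of named members under these alternatives, 100 lost a call, 33 gained one, 71 changed sign without being called, and 0 called values changed sign. Most named results were not called with all arrays and so could not lose a call. The 100 losses thus fell on the called results, a much smaller set than the 2422 values. Input signal was lowest for SNR6 and SNR52 (median percentiles 14.9 and 15.1). No paired analysis was possible because the groups share no replicate numbers, and the planned fit with a scan or print batch as a block was not run because the headers used here give no batch that holds over 1 array.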

Other observations

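Array 231, whose title and genotype name no deletion while its description and one growth text name rrm3 delete, measured all 43 members. Their median was 0.01, 23 lay above 0, the lowest was SNR37 at -0.84 and the highest SNR42 at 0.87.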
